A study of Mus musculus with 11 samples.

Results

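Palbociclib, an inhibitor of the cyclin-dependent kinases CDK4 and CDK6, was compared with vehicle in tumours of 4T1, a cell line from a mouse mammary carcinoma without hormone receptors. The comparison rests on 5 of the 11 tumour libraries of the series, 3 from mice given palbociclib at 30 mg/kg per day by mouth and 2 from mice given vehicle (sodium lactate with corn oil and DMSO). The sample titles call the vehicle tumours untreated, and the treatment label calls them vehicle. Tumour cells were injected in matrigel under the skin of both flanks of NSG mice, a strain that lacks T, B and NK cells, although the title of the series speaks of a syngeneic model. Treatment began at a tumour volume of about 100 mm3, and tumours were collected after 12 days. All groups carried the same 4T1 cells, labelled wild type and epithelial, so 1 cell line stands for the tumour type. The other 6 libraries came from 3 tumours given OPG-Fc, a decoy receptor for RANKL (10 mg/kg, 3 times a week), and 3 given OPG-Fc with palbociclib. That second pair of groups also differs by palbociclib and shares no library with the first, and its values are given beside those of the first. Bulk poly(A) RNA was sequenced, and the values are FPKM, fragment counts scaled to transcript length and to the mapped fragments of the library. Of 17181 genes in the table, 12390 had an FPKM of at least 1 in 2 or more of the 5 libraries and were kept.

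CDK4 and CDK6, with D-type cyclins, phosphorylate the retinoblastoma protein RB early in the cell cycle. Phosphorylated RB releases E2F transcription factors, which switch on genes for DNA replication, and genes for mitosis follow later through the MuvB and FOXM1 complexes. Palbociclib blocks the kinases and holds RB-positive cells in G1, and in patients it is used against breast cancers that express hormone receptors. Tumours also hold vessels, fibroblasts and immune cells, whose RNA is measured in the same libraries.

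The 5 libraries differed in tissue content before any drug comparison. Krt18, a keratin of simple epithelia that 4T1 cells express, had an FPKM of 984 in vehicle replicate 1 and of 1026, 1427 and 1151 in palbociclib replicates 1 to 3, but of 15.7 in vehicle replicate 2. In that library the summed FPKM of 22 B cell, plasma cell and lymph node genes was 9194, against 24.0 in vehicle replicate 1 and 13.1 to 15.1 in the palbociclib libraries. The labelled epithelial cell type was therefore poorly represented in vehicle replicate 2. In the same library 27 T and NK cell genes summed to an FPKM of 1614, against 75.05 in vehicle replicate 1. NSG mice lack T, B and NK cells, so these lymphoid values are at odds with the stated host, and the reason was not tested. Across kept genes the log2(FPKM + 1) values of vehicle replicate 2 had a Pearson correlation of 0.76 with vehicle replicate 1. With the palbociclib libraries it was 0.72 to 0.75, while vehicle replicate 1 and the palbociclib libraries correlated at 0.95 to 0.97. Skin genes were high in palbociclib replicates 1 and 3, where 24 epidermis and hair follicle genes summed to an FPKM of 1387 and 1131, against 41.9 in palbociclib replicate 2 and 21.0 and 8.62 in the vehicle libraries. In bulk tissue, fewer cells of a type and less RNA per cell cannot be told apart. The labels do not say whether tumours shared an animal, so p-values here reflect the spread between tumours, which may share a host. Where 1 vehicle library stands for its group, that spread comes from the other groups and does not measure the variation of vehicle tumours. The column names carry a number that is shared by combination replicates 1 and 2, and another shared by replicates 2 and 3 of OPG-Fc, with no statement of what it means. Depth could not be read from the table, which gives FPKM without counts.

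Because the vehicle libraries differ, each gene was set against each of them. A gene counts as separated where all 3 palbociclib values lie on one side of both vehicle values, and its gap is the distance on the log2(FPKM + 1) scale between the nearest palbociclib and vehicle values. Of the 12390 genes, 2108 (17%) lay above both vehicle libraries and 2400 (19.4%) below both. Against vehicle replicate 1 alone, 3669 genes (29.6%) lay above in all 3 palbociclib libraries and 4028 (32.5%) below. Against vehicle replicate 2 alone the counts were 5060 (40.8%) above and 5516 (44.5%) below. Without palbociclib replicate 1, 2574 genes lay above both vehicle libraries and 3025 below. The counts were 2790 and 2732 without palbociclib replicate 2, and 2455 and 3059 without palbociclib replicate 3. A gap of at least 1, which is a doubling of FPKM + 1, was reached by 29 genes above (0.234%) and 12 genes below (0.0969%). Those counts moved with single libraries: without vehicle replicate 1 they were 1717 and 1529, without vehicle replicate 2 58 and 24, without palbociclib replicate 2 204 and 23, and without palbociclib replicate 3 54 genes lay above. The members nearest to that limit were Rpl26 at a gap of 1.00 and S100a14 at 0.98 on the higher side, and Sulf1 at -1.01 and Fmod at -0.98 on the lower. An exact permutation test of 3 against 2 libraries cannot give a two-sided p below 0.2, so these counts carry no test.

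**Figure D1:**
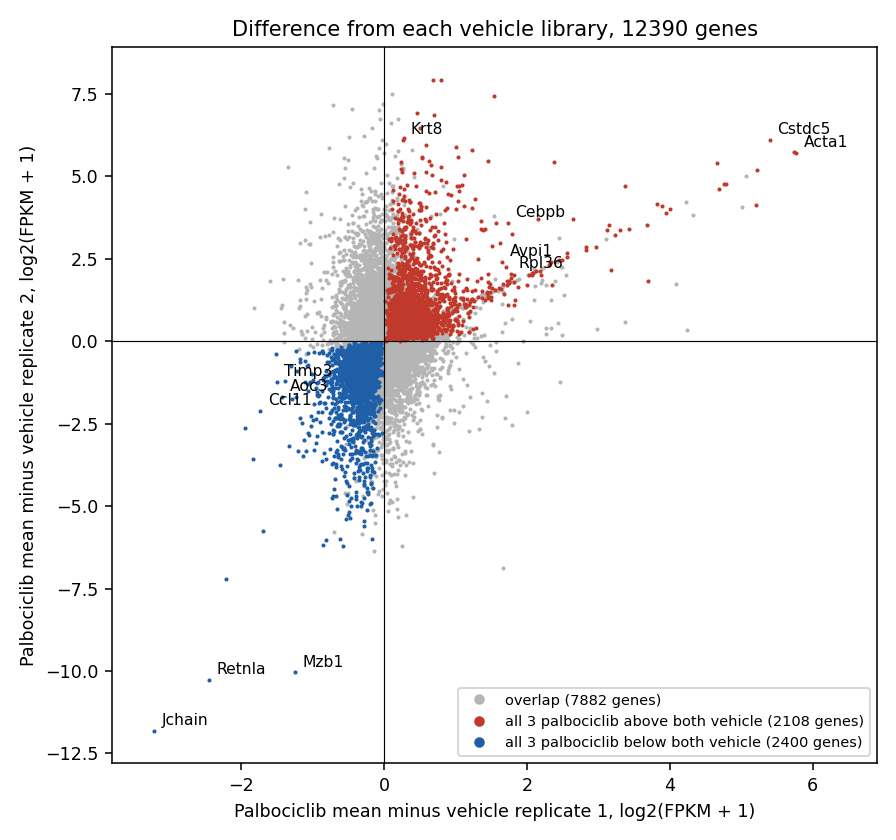
Mean of the 3 palbociclib libraries minus vehicle replicate 1 (horizontal axis) against the same mean minus vehicle replicate 2 (vertical axis), both in log2(FPKM + 1), for 12390 genes as points. Red points are the 2108 genes above both vehicle libraries and blue points the 2400 genes below both, and the spread is wider on the vertical axis, where Krt8 lies at 6.11 against 0.27 on the horizontal.

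In limma, a linear model fitted across all kept genes and all 11 libraries, 2 genes rose with palbociclib and 0 fell at a Benjamini-Hochberg adjusted p under 0.05 (0.0161% of genes), while 3521 had an unadjusted p under 0.05. Avpi1, which encodes a vasopressin-induced protein, had an FPKM of 12.1 and 6.71 in the vehicle libraries and of 36.0, 41.6 and 42.8 in the palbociclib libraries. Its log2 difference was 2.03 ± 0.23 (SE, adjusted p = 0.0467), and the groups did not overlap. The gene 1190005I06Rik, for which no function is given here, was at 0.70 and 0.69 with vehicle and at 5.28, 4.78 and 4.21 with palbociclib, a log2 difference of 1.76 ± 0.20 (adjusted p = 0.0467). Both of its vehicle values lay under the filter, so it was kept only through the palbociclib libraries where it is high. Both calls depended on the fit. Avpi1 passed in 4 of 17 other settings and 1190005I06Rik in 4 of 16, with adjusted p from 9.23e-06 to 0.756 and from 0.000246 to 0.756. Without palbociclib replicate 1 or without palbociclib replicate 3, 0 genes passed, without palbociclib replicate 2 171 genes, without vehicle replicate 2 1 gene and without vehicle replicate 1 6322 genes.

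The single gene that passed without vehicle replicate 2 (0.00807%) was Col15a1, a collagen of basement membranes, which fell against vehicle replicate 1. Its FPKM was 29.6 there, 13.2 in vehicle replicate 2 and 10.7, 9.17 and 9.46 with palbociclib, so it lay below both vehicle libraries. The log2 difference from vehicle replicate 1 was -1.51 ± 0.16 (adjusted p = 0.0465), and it passed in 7 of 15 other settings. It did not pass without palbociclib replicate 1 or 3 (adjusted p = 0.121 and 0.146, limma), and 196 genes passed without palbociclib replicate 2. Against vehicle replicate 2 alone, 6322 genes passed (51%), 3069 higher and 3253 lower, in the library that holds lymphoid transcripts. The comparison of the combination with OPG-Fc passed 13 genes (0.105%). Of these, 12 fell: Aoc3, Cdh5, Col15a1, Col3a1, Emilin1, Fbln1, Fbn1, Lama4, Lrrc32, Nid1, Sulf1 and Timp3, genes of matrix, vessel walls and fibroblasts with the exception of Lrrc32, a receptor for latent TGF-beta. The linker histone gene H1f4 rose. Leaving out any 1 of the 6 OPG-Fc or combination libraries left 0 genes passing, and the fit takes the libraries whose columns share a number as separate tumours.

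Transcript length moved with the difference. The median transcript length was 2636 bases over kept genes, 1848 for the genes above both vehicle libraries and 3174 for those below. In 4 equal groups of genes by length, 29.6% of the shortest group lay above and 10.8% below, and of the longest group 5.69% lay above and 27.4% below. The median difference from vehicle replicate 1 went from 0.18 in the shortest group to -0.17 in the longest. Combination minus OPG-Fc showed the same order, from 0.26 to -0.35. When a smooth length trend was removed from each library, 2103 genes lay above and 2146 below, and 1678 (79.6%) and 1773 (73.9%) of the original genes stayed on their side. What part length has in single genes was not tested, and counts after this correction are given for groups where it moved the larger count by over 1.5 times.

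**Figure D2:**
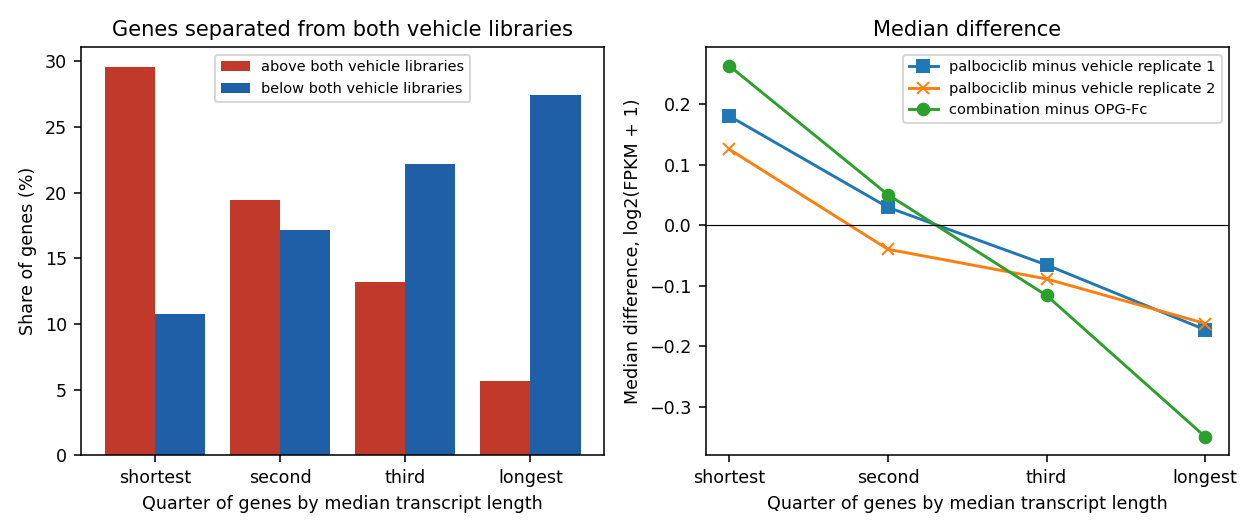
Left, share of genes (%) above (red) or below (blue) both vehicle libraries in 4 equal groups of genes by median transcript length. Right, median difference in log2(FPKM + 1) in the same groups for palbociclib minus each vehicle library and for combination minus OPG-Fc, all of which go from positive in the shortest to negative in the longest group (0.18 to -0.17 against vehicle replicate 1).

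The genes with the widest gaps above both vehicle libraries came from muscle, skin and a few other sources. Acta1, the actin of skeletal muscle, was at 0.06 and 0.10 FPKM with vehicle and at 70.1, 108 and 23.7 with palbociclib. Tnnc2, the calcium sensor of fast muscle, was at 0 and 0.10 against 11, 24.9 and 5.71. Mb (myoglobin), Actn3 and Csrp3 are muscle genes too. Of 18 skeletal muscle genes 12 were kept. Without the palbociclib libraries 10 of those 12 would not have reached the filter, so their place above vehicle (11 of 12) follows in part from how genes were kept. Muscle transcripts were not particular to palbociclib: Acta1 stood at 9.43, 98.2 and 151 in the OPG-Fc libraries and at 149, 132 and 22.1 in the combination libraries. The 2 vehicle libraries were the ones without it.

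Stfa2 and Cstdc5, stefin A family inhibitors of cysteine proteases, were next. Cstdc5 was at 2.81 and 1.31 with vehicle and at 425, 16.3 and 558 with palbociclib, highest in the libraries with skin transcripts. The members of this family are near copies of each other, so the share of reads given to each is uncertain. Defb6, a beta-defensin, was listed at 0 in both vehicle libraries and at 113, 3.40 and 41.0 with palbociclib, and followed the same order. It was kept only through the palbociclib libraries. Mcpt2, a mast cell protease, was at 2.45 and 0.65 against 27.0, 9.69 and 32.6. In these genes palbociclib replicate 2, which had little skin RNA, was the lowest of the palbociclib libraries for Cstdc5, Defb6 and Mcpt2, as it was for Stfa2 (12.3 against 23.6 and 53.6).

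Cebpb, Avpi1 and Rpl36 differed from that pattern, with palbociclib replicate 2 at or near the top. Cebpb encodes C/EBP-beta, a transcription factor of mammary epithelium, macrophages and inflammatory responses. It was at 39.6 and 10.2 FPKM with vehicle and at 113, 159 and 134 with palbociclib (135 ± 22.98, SD, n = 3). Its log2 difference was 1.73 ± 0.34 from vehicle replicate 1 (adjusted p = 0.173) and 2.66 ± 0.48 (SE) from both (adjusted p = 0.14, limma). In the other pair of groups it was at 97.2, 63.5 and 81.9 with OPG-Fc and at 107, 146 and 207 with the combination, again without overlap. Cracr2b, which regulates calcium entry, was at 2.67 and 2.53 with vehicle and at 8.93, 7.99 and 10.2 with palbociclib (log2 difference 1.48 ± 0.19, adjusted p = 0.0646). For Cracr2b the OPG-Fc and combination libraries overlapped, with means of 8.07 and 7.95 FPKM.

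On the lower side, Jchain, the joining chain of secreted antibodies, had the widest gap. It was at 9.19 and 3925 with vehicle and at 0.04, 0.09 and 0.15 with palbociclib. Mzb1, a chaperone of antibody-secreting cells, was at 1.74 and 1215 against 0.11, 0.18 and 0.17, so both markers of plasma cells were low in vehicle replicate 1 and very high in vehicle replicate 2. Retnla, a product of alternatively activated macrophages, was at 7.25 and 1853 against 0.38, 0.53 and 0.63. In these 3 genes the difference from vehicle replicate 2 exceeds that from vehicle replicate 1 many times over. All 3 were under the filter in every palbociclib library and were kept only through the vehicle libraries. Their place below vehicle thus follows in part from how genes were kept.

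Among the other wide gaps on the lower side, Ccl11, Aoc3, Timp3 and Sulf1 lay at a similar distance from both vehicle libraries, while Rnase2a, Ccl24, Sfrp4, Itih5 and Fmod lay farther from vehicle replicate 2. Ccl11, an eotaxin that draws eosinophils and is made by fibroblasts, was at 23.7 and 31.2 with vehicle and at 5.92, 7.54 and 5.94 with palbociclib. Its log2 difference was -1.92 ± 0.29 (SE, adjusted p = 0.136), and it was at 26.9, 26.6 and 29.3 with OPG-Fc and 9.66, 7.21 and 17.4 with the combination. Ccl24, a second eotaxin, was at 16.6 and 86.0 against 7.27, 5.71 and 3.84, and Rnase2a, an eosinophil-type ribonuclease, at 15.3 and 268 against 4.60, 4.10 and 3.46. Thus 3 of the 12 widest gaps on the lower side were in eosinophil attractants or an eosinophil-type ribonuclease, a grouping made after their values were seen. Of these 3, Ccl24 and Rnase2a overlapped between the OPG-Fc and combination libraries.

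Aoc3, a copper-dependent amine oxidase of smooth muscle and fat, was at 7.93 and 9.69 with vehicle and at 2.39, 2.12 and 2.50 with palbociclib (log2 difference -1.55 ± 0.21, adjusted p = 0.0742). Timp3, an inhibitor of metalloproteinases bound to matrix, was at 17.5 and 14.4 against 6.16, 6.28 and 4.33 (-1.37 ± 0.17, adjusted p = 0.0577). Sulf1, which trims sulfate from heparan sulfate, was at 12.9 and 14.3 against 5.91, 5.64 and 4.84 (-1.18 ± 0.17, adjusted p = 0.123). None of these 3 passed against vehicle in limma, and all 3 passed in combination against OPG-Fc, where Timp3 was at 20.4, 19.99 and 19.7 against 7.47, 7.38 and 7.35. Sfrp4, a secreted Wnt antagonist, Itih5, a hyaluronan-binding protein, and Fmod, a collagen-binding proteoglycan, completed the list. Sfrp4, Itih5 and Fmod were also kept only through the vehicle libraries, so their place below vehicle is in part set by the filter. Sfrp4 was at 3.50 and 13.9 against 0.20, 0.34 and 0.25.

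**Figure D3:**
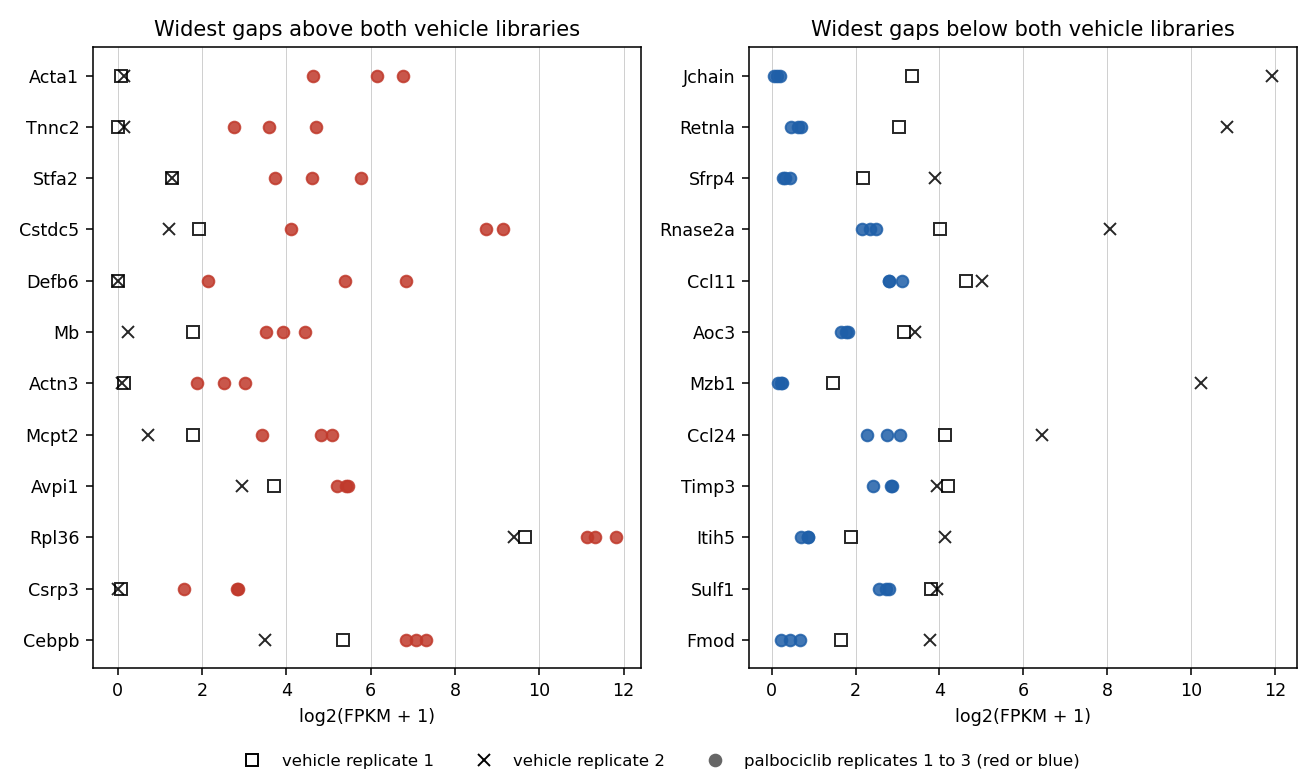
log2(FPKM + 1) on the horizontal axis for the 12 genes with the widest gap above (left) and the 12 below (right) both vehicle libraries. Open squares are vehicle replicate 1, crosses vehicle replicate 2 and filled circles the 3 palbociclib libraries, and vehicle replicate 2 lies far from vehicle replicate 1 for Jchain (3925 against 9.19 FPKM) and Mzb1 but close to it for Aoc3, Timp3 and Sulf1.

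The components of the palbociclib target pathway mostly overlapped between the groups. Of 27 kept genes for CDK4, CDK6, cyclins, their inhibitors, RB and E2F proteins, 2 lay above and 5 below both vehicle libraries, at or below the shares of all genes. Without palbociclib replicate 3 10 lay below, as did 3059 of all 12390 genes. Cdk4 itself was at 296 and 171 FPKM with vehicle and at 324, 414 and 355 with palbociclib (gap 0.13), and at 259, 330 and 313 with OPG-Fc against 383, 353 and 598 with the combination. Rbl1, which encodes the RB relative p107 and is itself an E2F target, lay below, at 22.3 and 25.5 against 12.7, 11.8 and 16.4. For Rbl1 the OPG-Fc and combination libraries overlapped. Ccnd2, a D-type cyclin, was at 8.85 and 45.8 against 6.86, 6.34 and 5.50, and Cdc25a, the phosphatase that activates CDK2, at 10.6 and 17.8 against 10.1, 9.80 and 9.24.

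The other 3 separated members were E2f8 and, named after their values were seen, Tfdp1 and Cdkn2d. Tfdp1, a dimer partner of E2F proteins, was at 65.5 and 67.6 against 80.7, 77.2 and 91.6. E2f8, a repressor of the E2F family, was at 13.9 and 14.8 against 8.31, 8.12 and 13.6, with palbociclib replicate 3 close to vehicle. Cdkn2d, a CDK4 and CDK6 inhibitor, was at 21.1 and 37.7 against 16.1, 20.9 and 19.1. With quantile normalization 2 members lay above and 3 below.

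The other pathway members named here overlapped between the groups. Ccnd1 was at 333 and 13.1 with vehicle and 276, 276 and 309 with palbociclib, low in the library poor in epithelial transcripts. Rb1 was at 5.15 and 17.3 against 3.67, 3.16 and 5.57, and the inhibitor gene Cdkn1a (p21) at 30.5 and 17.3 against 31.1, 33.4 and 27.6. E2f1 was at 15.5 and 10.4 against 13.1, 15.01 and 17.3. Mki67, the proliferation marker, was at 24.6 and 79.7 against 16.4, 13.4 and 28.0, with palbociclib replicate 3 above vehicle replicate 1. Cdkn2a, which encodes p16 and ARF, did not reach the filter, at 0.72 and 7.64 against 0.18, 0.30 and 0.18.

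Genes of mitosis were lower in palbociclib replicates 1 and 2, and near vehicle in replicate 3. Of 64 genes of G2/M and mitosis, 18 lay below both vehicle libraries (28.1%, against 19.4% of all genes) and 0 above. Without palbociclib replicate 3 the first count was 55, and 3059 of all 12390 genes lay below. The mean log2(FPKM + 1) of the 64 was 4.30 and 4.58 with vehicle and 3.8, 3.81 and 4.37 with palbociclib. The 18 included Plk1, the mitotic kinase, at 27.0 and 40.3 against 17.3, 15.6 and 23.2, and Ccnb1, the mitotic cyclin, at 25.5 and 41.5 against 16.2, 16.6 and 23.3. Nek2, a centrosome kinase, had the widest gap of the list, at 15.1 and 26.7 against 9.62, 7.18 and 11.6 (log2 difference -1.04 ± 0.27, adjusted p = 0.15). Kif18b, a kinesin of astral microtubules, was at 10.97 and 16.3 against 6.10, 6.36 and 8.45. None of the 64 passed in limma. In the second pair of groups 4 of the 64 lay below all OPG-Fc libraries and 3 above, and the mean was 4.48, 4.70 and 4.50 with OPG-Fc and 4.80, 4.40 and 4.33 with the combination.

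Genes of DNA replication and G1/S showed less. Of 50, 5 lay above (10%) and 4 below (8%) both vehicle libraries, against 17% and 19.4% of all genes. Without palbociclib replicate 3 22 lay below, as did 3059 of all 12390 genes. Without palbociclib replicate 1 10 lay above, as did 2574 of all genes. The mean log2(FPKM + 1) of the 50 was 4.69 and 5.05 with vehicle and 4.58, 4.62 and 4.92 with palbociclib. Gins2, a subunit of the replicative helicase, lay above, at 35.8 and 18.9 against 41.4, 49.7 and 48.5, and so did Rpa3, which binds single-stranded DNA, at 64.5 and 58.0 against 68.7, 91.6 and 101.48. Of 30 genes of homologous recombination and the Fanconi pathway, 1 lay above (3.33%) and 3 below (10%). Without palbociclib replicate 3 14 of the 30 lay below. The 3 that lay below in all palbociclib libraries were Fanci, Fancb and Fancd2, which encode Fanconi pathway proteins, with Fanci at 2.05 and 4.99 against 1.43, 1.17 and 1.65. Of 23 p53 targets, 2 lay above (8.7%) and 6 below (26.1%), against 17% and 19.4% of all genes. With the length correction 3 lay below. Among the 6 was Pmaip1, which encodes the death factor NOXA, at 4.41 and 13.6 against 2.73, 3.97 and 3.82.

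Promoters of mitotic genes hold a short element, TTTGAA, known as the cell cycle genes homology region and bound by MuvB complexes, and it is shown here for 4 of the genes that lay below both vehicle libraries. The sequences are from RefSeq (GRCm38.p6), 5′ to 3′ on the gene's strand, with the element in capitals. The 4 have the widest gaps among the mitotic genes searched that hold the element in the 300 bases around their start (250 before and 50 after). Genes on a chromosome left out when choosing sequences could not be among them.
Kif18b, chr11:102925104-102925133, minus strand: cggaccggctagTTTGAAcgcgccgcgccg
Plk1, chr7:122159453-122159482, plus strand: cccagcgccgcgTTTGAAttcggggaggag
Knl1, chr2:119047138-119047167, plus strand: agggcggttagaTTTGAAtacttcagggac
Bub1b, chr2:118598231-118598260, plus strand: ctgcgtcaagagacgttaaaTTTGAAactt
In each the element starts shortly after the annotated start, at 3, 30, 31 and 40 bases past the first transcribed base. Searched on both strands, TTTGAA was present in the window of 37 of 52 mitosis genes with a RefSeq promoter (71.2%), against 14.3% of the 9875 kept genes with one. Among the mitosis genes below both vehicle libraries it was 9 of 14 (64.3%), and among all genes below both it was 15.4%. The E2F-type element TTTNNCGC was in 45.2% of 42 DNA replication genes, in 13.5% of the mitosis genes and in 9.73% of kept genes. CCAAT was in 75% of the mitosis genes and 43.1% of kept genes. A match describes the letters in the window and is not a binding site.

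RANK, its ligand and the decoy receptor overlapped or lay close. Tnfrsf11a, which encodes RANK, was at 0.89 and 2.31 with vehicle and 0.91, 1.08 and 0.95 with palbociclib, and Tnfsf11, which encodes RANKL, at 0.52 and 3.30 against 1.34, 0.87 and 1.45. Tnfrsf11b, which encodes osteoprotegerin, lay above, at 2.50 and 0.67 against 5.93, 2.91 and 4.20 (gap 0.16). Of 26 genes of the RANK and NF-kB pathways, 2 lay above (7.69%) and 6 below (23.1%) both vehicle libraries, against 17% and 19.4% of all genes. After the length correction 5 lay above and 1 below. Among 39 senescence-type secreted factors, 8 lay above (20.5%) and 4 below (10.3%) both, the first share near that of all genes. Against vehicle replicate 1 alone 9 lay above and 16 below (median difference -0.14), and against vehicle replicate 2 alone 29 and 7 (2.04), so the direction differed between the vehicle libraries. Of the 39, 11 were kept only through the palbociclib libraries. Cxcl1 and Cxcl5, which draw neutrophils, lay above, Cxcl1 at 39.1 and 1.45 against 49.1, 164 and 158. Mmp10, a stromelysin, was at 65.3 and 0.06 against 91.2, 92.2 and 94.9, and the growth factor gene Areg at 10.6 and 2.75 against 17.97, 14.5 and 24.98.

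Genes for cytosolic ribosomal proteins lay above vehicle as a group. Of 83, 69 lay above both vehicle libraries and 0 below, against 17% above among all genes, and the median difference was 0.70 from vehicle replicate 1 and 0.65 from vehicle replicate 2. Their summed FPKM was 127619 and 133969 with vehicle and 184746, 254274 and 184359 with palbociclib, with replicate 2 highest. In the second pair of groups 81 of the 83 lay above all OPG-Fc libraries (15.9% of all genes did), with sums of 121845 to 156686 with OPG-Fc and 195442 to 306572 with the combination. With quantile normalization 39 lay above and 8 below, and the median of the log2 difference over both vehicle libraries was 0.23 instead of 0.63. Their transcripts are short, with a median length of 744 bases, and after the length correction 53 lay above and 1 below. None passed in limma, and reads from their many processed pseudogenes can be assigned to them, so single values are uncertain.

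Rpl36 had the widest gap of the group, at 801 and 668 with vehicle and 2569, 3595 and 2256 with palbociclib (log2 difference 1.91 ± 0.34, adjusted p = 0.14). Rpl26 was at 2044 and 1473 against 4094, 5565 and 4124. Rpl39l, a paralogue of a core ribosomal protein gene expressed at low level, was at 1.06 and 1.46 against 5.53, 4.91 and 6.42. In each of these the palbociclib libraries lay closer to each other than to the nearest vehicle library. The other 14 ribosomal protein genes overlapped.

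Ribosomal protein mRNAs often start with a C followed by a run of pyrimidines, the 5′ terminal oligopyrimidine tract, through which mTOR signalling controls their translation. The 4 genes shown have the widest gaps of the group among those searched that hold the tract at the annotated start. Genes on the chromosome left out above could not be chosen here either. Each sequence is 30 bases centred on the annotated start, with the tract in capitals (RefSeq, GRCm38.p6, gene's strand).
Rps21, chr2:180257364-180257393, plus strand: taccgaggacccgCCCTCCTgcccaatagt
Rps18, chr17:33955651-33955680, minus strand: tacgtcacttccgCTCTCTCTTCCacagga
Rps10, chr17:27635230-27635259, minus strand: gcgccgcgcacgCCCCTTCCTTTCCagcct
Rpl31, chr1:39367836-39367865, plus strand: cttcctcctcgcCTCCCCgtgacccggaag
Rps21 was at 1070 and 1664 FPKM with vehicle and 3165, 4804 and 2996 with palbociclib, and Rps18 at 2558 and 2184 against 4892, 7478 and 4349. A C with at least 4 pyrimidines after it, beginning within 3 bases of the annotated start, was found in 26 of 62 ribosomal protein genes with a promoter entry (41.9%), in 21 of the 49 above both vehicle libraries (42.9%) and in 14.9% of kept genes. Annotated starts can be off by a few bases, so the shares depend on the annotation.

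Other genes of protein synthesis and turnover lay on the same side, with less distance. Of 33 translation factors, 15 lay above (45.5%) and 1 below (3.03%) both vehicle libraries, against 17% and 19.4% of all genes. With quantile normalization 9 lay above and 3 below, as did 2130 and 2423 of all 12390 genes. Eef1b2, a subunit of the elongation factor complex, was at 317 and 291 against 473, 659 and 469, and Rack1, a ribosome-bound scaffold, at 1462 and 1402 against 1990, 2729 and 1902. Of 33 subunits of the constitutive proteasome, 16 lay above (48.5%) and 0 below, with Psma7 at 251 and 206 against 335, 366 and 320. Mitochondrial ribosomal proteins had 29 of 75 above (38.7%) and 4 below (5.33%). After the length correction 15 lay above and 9 below, while 17.4% of all genes with a known length lay above and 17.7% below. Mrpl12 was at 38.2 and 53.2 against 89.7, 94.5 and 83.0. Nuclear-encoded subunits of the respiratory chain had 23 of 76 above (30.3%) and 5 below (6.58%). These became 16 and 18 with the length correction, so their direction depended on it. Cox6c, a subunit of cytochrome oxidase, was at 531 and 513 against 777, 968 and 868.

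**Figure D4:**
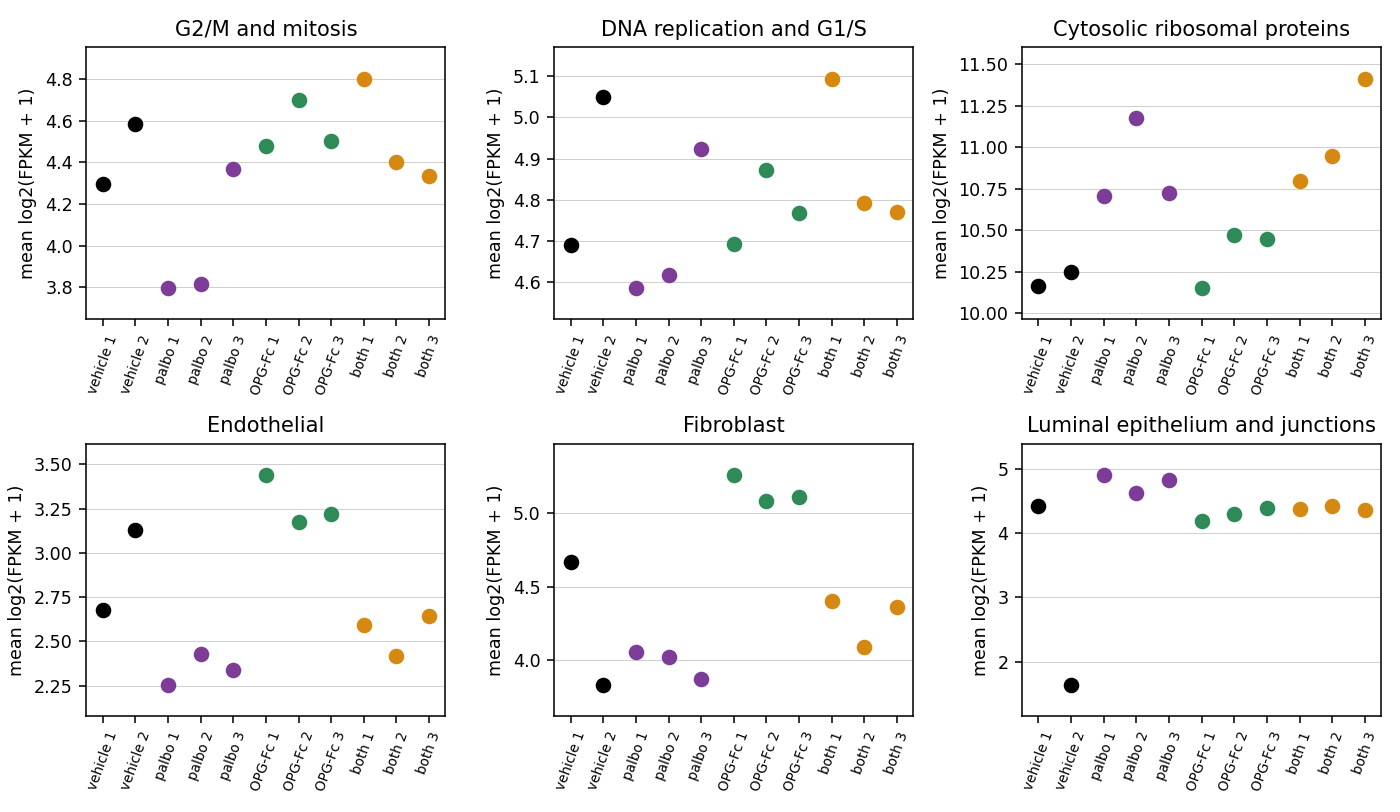
Mean log2(FPKM + 1) of 6 gene lists in each of the 11 libraries, as points (black vehicle, purple palbociclib, green OPG-Fc, orange OPG-Fc with palbociclib; the digit is the replicate). Palbociclib replicate 3 lies between the vehicle libraries for mitosis (4.37 against 4.30 and 4.58), the palbociclib libraries lie above vehicle for ribosomal proteins and below it for endothelial genes, and vehicle replicate 2 is low for luminal epithelium.

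Endothelial genes lay below both vehicle libraries more often than any other list of at least 9 genes. Of 26, 19 lay below and 0 above, against 19.4% below among all genes, and with palbociclib replicate 2 as the only palbociclib library the count was also 19. Cdh5, the cadherin of endothelial junctions, was at 15.3 and 17.7 with vehicle and 9.16, 8.12 and 9.08 with palbociclib. Kdr, the receptor VEGFR2, was at 3.79 and 7.97 against 1.80, 1.64 and 1.95, and Pecam1, an adhesion molecule of vessels and leukocytes, at 26.1 and 63.0 against 18.5, 19.4 and 17.4. Ramp2, a co-receptor for adrenomedullin, was at 16.9 and 41.5 against 6.65, 9.36 and 7.62. None of the 26 passed against vehicle in limma (Cdh5 -0.84 ± 0.19, adjusted p = 0.15). In the second pair of groups 20 of 26 lay below all OPG-Fc libraries (22.4% of all genes did), and Cdh5 fell, from 30.7, 21.0 and 23.4 to 10.1, 9.23 and 7.91 (-1.36 ± 0.17, adjusted p = 0.0352).

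Mural cells and signals to vessels were measured with their own lists. Of 16 pericyte and smooth muscle genes, 5 lay below (31.25%) and 1 above (6.25%) both, against 19.4% and 17% of all genes. With quantile normalization 3 lay below and 1 above. The median difference was -0.46 from vehicle replicate 1 and 0.31 from vehicle replicate 2, so the direction differed between the vehicle libraries. Among the 5 were the pericyte markers Rgs5, at 20.04 and 34.2 against 9.25, 10.5 and 10.6, and Abcc9, a potassium channel subunit, at 2.97 and 3.91 against 1.11, 0.97 and 1.23. Acta2, the actin of smooth muscle and activated fibroblasts, overlapped, at 91.8 and 37.7 against 51.9, 74.1 and 49.3. Of 20 genes of VEGF and angiopoietin signalling, 5 lay below (25%) and 2 above (10%) both, near or under the shares of all genes (19.4% and 17%). After the length correction 4 lay below and 0 above. The 5 included Aplnr, the apelin receptor of sprouting vessels, at 4.31 and 6.87 against 2.04, 2.52 and 2.02.

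Fibroblast and matrix genes lay mostly below vehicle replicate 1 but on both sides of vehicle replicate 2. Of 31 fibroblast genes, 22 lay below vehicle replicate 1 and 0 above it. Against vehicle replicate 2, 13 lay below and 17 above. In all, 11 lay below both vehicle libraries (35.5%, against 19.4% of all genes), and 0 lay above both. The median difference was -0.74 from vehicle replicate 1 and 0.31 from vehicle replicate 2, whose summed fibroblast FPKM was 922 against 2596 in vehicle replicate 1. Fap, a protease of activated fibroblasts, was below both, at 5.51 and 6.36 against 2.03, 2.63 and 2.19, and so was Islr, a marker of mesenchymal stroma, at 9.29 and 13.3 against 2.89, 4.41 and 3.01. Pdgfra and Pdgfrb, the platelet-derived growth factor receptors, overlapped, Pdgfrb at 20.8 and 7.65 against 13.5, 10.6 and 12.0.

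Of 8 fibrillar collagen genes, 6 lay below vehicle replicate 1 and 1 above it. Against vehicle replicate 2, 5 lay above and 1 below. Only Col3a1 lay below both, at 347 and 241 with vehicle against 182, 174 and 131 with palbociclib. All 8 lay below all OPG-Fc libraries in the combination, and Col3a1 went from 983, 614 and 779 to 279, 197 and 205 (log2 difference -1.79 ± 0.23, adjusted p = 0.0352). Nid1, a linker of basement membranes, was at 33.2 and 22.4 with vehicle and 12.5, 13.0 and 13.3 with palbociclib, and Fbn1, the fibrillin of elastic fibres, at 15.03 and 11.8 against 7.45, 4.50 and 6.05. Of 19 basement membrane genes, 3 lay below (15.8%) and 1 above (5.26%) both vehicle libraries, against 19.4% and 17% of all genes. Against vehicle replicate 1 alone 11 lay below, and against vehicle replicate 2 alone 3 lay below and 15 above. In the combination 16 lay below all OPG-Fc libraries. The 1 above both vehicle libraries was Lamb2, a laminin chain, at 14.7 and 4.64 against 21.8, 15.3 and 16.9. Of 25 genes of elastic fibres and small proteoglycans, 9 lay below (36%) and 1 above (4%) both. Mmp2, a gelatinase made by fibroblasts, was at 44.1 and 36.7 against 30.8, 23.9 and 27.9.

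Genes of the lysosome, of protein folding in the endoplasmic reticulum and of macrophages lay lower. Among all genes 19.4% lay below and 17% above both vehicle libraries. Of 41 lysosomal genes, 20 lay below and 2 above both vehicle libraries, with Hexa, a subunit of hexosaminidase, at 53.5 and 115 against 36.6, 36.0 and 27.9, and Psap, the precursor of saposins, at 780 and 1596 against 603, 481 and 543. Atp6v0d2, a proton pump subunit of macrophages and osteoclasts, was at 2.32 and 7.83 against 0.56, 1.00 and 0.60. Of 27 genes of ER stress and chaperones, 13 lay below and 2 above both, with a median difference of -0.12 from vehicle replicate 1 and -0.86 from vehicle replicate 2, below which 21 lay. Hsp90b1, the chaperone GRP94, was at 492 and 1114 against 430, 354 and 396. Of 27 macrophage genes, 11 lay below and 1 above, with medians of -0.31 from vehicle replicate 1 and -0.97 from vehicle replicate 2. Adgre1 (F4/80) was at 15.4 and 22.9 with vehicle and 9.73, 8.46 and 10.2 with palbociclib, Csf1r, the CSF1 receptor, at 38.8 and 119 against 26.8, 28.3 and 28.7, and Lyz2 at 702 and 3016 against 434, 491 and 368. In the second pair of groups 18 of 41 lysosomal and 12 of 27 ER genes lay below all OPG-Fc libraries, against 22.4% of all genes, and the 7 of 27 macrophage genes that did were near that share.

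Lymphoid, mast cell and neutrophil genes each followed other libraries. Of 27 T and NK cell genes 18 were kept, 2 of them only through the vehicle libraries, and all 18 lay below vehicle replicate 2 and 7 below both, while Cd3e, part of the T cell receptor complex, was at 1.74 and 56.2 against 1.98, 1.35 and 0.59. The mast cell protease gene Tpsb2 overlapped, at 2.68 and 7.02 against 16.5, 5.74 and 13.2, lowest in the palbociclib library with little skin RNA. Of 17 neutrophil genes, 5 lay above (29.4%) and 2 below (11.8%) both, against 17% and 19.4% of all genes. Without palbociclib replicate 1 8 lay above, as did 2574 of all 12390 genes. S100a8 and S100a9, calcium-binding proteins of neutrophils and inflamed skin, lay above, S100a9 at 107 and 72.7 against 197, 386 and 559. Retnlg, a neutrophil marker, lay below, at 17.9 and 34.5 against 8.97, 17.7 and 17.5. The members of this list therefore did not lie on one side.

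Epithelial genes lay above vehicle, by little against vehicle replicate 1 and by much against vehicle replicate 2. Of 35 luminal and junction genes, 18 lay above both and 0 below, with a median difference of 0.27 from vehicle replicate 1 and 3.23 from vehicle replicate 2. Of the 35, 14 were kept only through the palbociclib libraries, since vehicle replicate 2 held little of them. Krt8 was at 593 and 9.34 with vehicle and 736, 724 and 684 with palbociclib. Pkp3, a desmosome plaque protein, was at 24.8 and 6.29 against 53.5, 46.2 and 48.6, and Cldn7, a tight junction protein, at 70.4 and 1.74 against 113, 125 and 98.5. In the combination 9 of the 35 lay above all OPG-Fc libraries and 3 below. Of 22 genes of mesenchymal transition, 6 lay below (27.3%) and 1 above (4.55%) both, against 19.4% and 17% of all genes. Against vehicle replicate 1 alone 15 lay below and 1 above (median difference -0.36). Against vehicle replicate 2 alone 7 lay below and 15 above (0.41), so the direction differed between the vehicle libraries. Among the 6 were the repressors of epithelial genes Zeb1, at 3.85 and 11.1 against 1.95, 2.05 and 1.98, and Zeb2, at 6.56 and 10.8 against 4.44, 3.49 and 4.29.

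Keratins of skin separated the palbociclib libraries from each other. Of 24 epidermis and hair follicle genes 17 were kept, 15 of them only through the palbociclib libraries, as were 8 of 9 basal and stress keratins. How many lay above vehicle (13 and 6) is therefore in part set by the filter and is given as a description. Krt10, of differentiating epidermis, was at 0.93 and 0.65 with vehicle and 113, 1.74 and 73.4 with palbociclib, and Krt16, of stressed epidermis, at 0.67 and 0 against 150, 1.49 and 198. Krt14, of basal cells, was at 112 and 0.88 against 490, 147 and 485. For all 3, palbociclib replicate 2 lay near vehicle replicate 1, and the part of skin tissue in these values was not tested.

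Stress, interferon and metabolic lists showed smaller or mixed separation. Of 22 heat shock genes, 7 lay above (31.8%) and 2 below (9.09%) both vehicle libraries, against 17% and 19.4% of all genes. Hspb1 was at 4.56 and 8.04 against 27.4, 12.8 and 18.1. Hspa1a, which lay on opposite sides in the 2 pairs of groups, and Hspa1b are near-identical genes for inducible HSP70 between which reads are divided with uncertainty. Hspa1b was at 20.1 and 0.87 against 38.0, 53.9 and 30.2. Of 39 interferon response genes, 7 lay above (17.9%) and 4 below (10.3%) both, against 17% and 19.4% of all genes. Without palbociclib replicate 3 16 lay above, as did 2455 of all 12390 genes. Against vehicle replicate 1 alone 7 of the 39 lay above and 11 below (median difference -0.08), and against vehicle replicate 2 alone 28 and 5 (0.89). In the combination 15 lay above all OPG-Fc libraries. Isg20, an antiviral nuclease, was at 35.0 and 36.9 against 61.2, 61.2 and 56.9. Of 37 genes of hypoxia and glycolysis, 8 lay above (21.6%, near the share of all genes) and 2 below (5.41%) both vehicle libraries. Without palbociclib replicate 1 13 lay above, as did 2574 of all 12390 genes. However, 14 lay below vehicle replicate 1 and 34 above vehicle replicate 2. With quantile normalization 3 lay above both, as did 2130 of all genes. Tpi1, a glycolytic enzyme, was at 374 and 148 against 517, 636 and 527. Of 24 sterol synthesis genes, 3 lay above (12.5%) and 0 below, both under the shares of all genes. Without palbociclib replicate 2 6 lay above, as did 2790 of all genes. Without palbociclib replicate 3 5 lay below, as did 3059 of all genes. Mvk, mevalonate kinase, was at 8.43 and 8.18 against 12.0, 12.2 and 12.3.

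**Figure D5:**
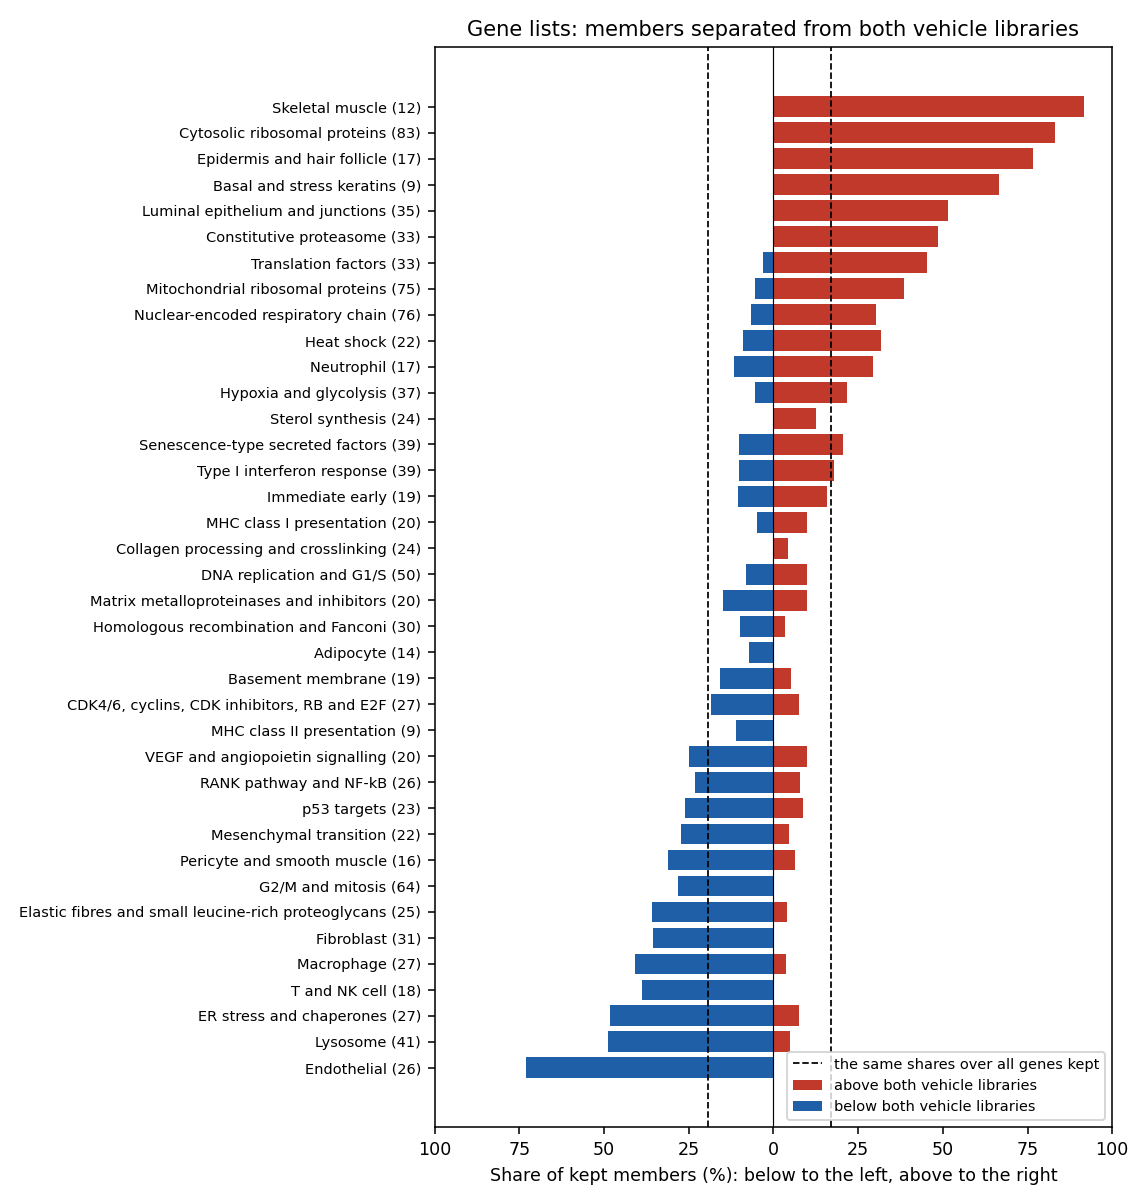
Share of kept members (%) of each gene list of at least 9 genes that lay above (red, to the right) or below (blue, to the left) both vehicle libraries in all 3 palbociclib libraries, with the number kept in brackets. Dashed lines give the shares over all kept genes (17% and 19.4%), and ribosomal protein genes (69 of 83 above) and endothelial genes (19 of 26 below) lie far past them while DNA replication and the CDK4/6 pathway do not. Most muscle and skin members were kept only through the palbociclib libraries.

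The separated genes were also read in the libraries that the comparison does not use. Of the 2108 genes above both vehicle libraries, 943 (44.7%) lay above all OPG-Fc libraries in all 3 combination libraries and 55 below. They made up 47.7% of the 1975 genes that did so in that pair of groups. Of the 2400 genes below both vehicle libraries, 1113 (46.4%) lay below all OPG-Fc libraries, 40.0% of the 2781 that did so, and 56 above. After the length correction the shares were 29.9% of the genes above, against 10.9% of all genes, and 36.5% of the genes below, against 16.3%. In limma, a test of whether the difference between palbociclib and vehicle is unlike that between the combination and OPG-Fc passed 0 genes, and 713 had an unadjusted p under 0.05. For Avpi1, the difference was 2.03 in the first pair and 0.68 ± 0.21 (SE) in the second, with an unadjusted p of 0.0015 for the contrast between them (adjusted p = 0.625).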

How the data were processed

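Poly(A) RNA of 11 tumours was sequenced, and the authors deposited FPKM values for 17181 gene symbols in 1 table, which holds 0 mitochondrial genes. The submitters' processing notes name HISAT, Bowtie2, RSEM, GRCm39 and mm39 and state neither a role nor a version for any of them. The summed FPKM per library ran from 576699 to 864670, the steps between low values gave no whole reads, and depth is unknown.

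Values were taken as log2(FPKM + 1). A gene was kept where 2 or more of the 5 palbociclib and vehicle libraries reached an FPKM of 1 (12390 genes). A group means model was fitted in limma 3.58.1 (R 4.3.3) with a mean-dependent variance prior, over all 11 libraries, or over 10 where 1 vehicle library stood for its group and was assumed to vary like the others. Adjustment was by Benjamini-Hochberg over all kept genes, threshold 0.05, two-sided. The fit was tested on simulated data with known changes in better expressed genes. With both vehicle libraries it recovered 66 of 100 log2 changes of 1 and 94 of 100 of 2. The simulated spread was taken without vehicle replicate 2, and the simulated vehicle libraries shared their means. The test therefore cannot say how the fit handles the difference between the real vehicle libraries. A fold change on the log2(FPKM + 1) scale understates the change of low genes.

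The comparison, the 42 gene lists and the naming rule were chosen with earlier results of these data known. Named were the 12 widest gaps per direction (gene models without a symbol left out), a panel of CDK4/6 and RANK genes, up to 4 members per list by gap, the 3 smallest p per direction, and defining markers. Bub1b, Ccnb1, Knl1, Plk1, Rpl31, Rps10, Rps18, Rps21, S100a14 and, as genes passing in the combination, Emilin1, Fbln1, H1f4 and Lrrc32 fell outside that rule and were added after their values were seen. Transcript lengths (GENCODE vM21, matched by symbol for 97.6% of kept genes) and RefSeq promoters are of the older build GRCm38, used by symbol. Alternatives varied the pseudocount, filter, scaling, libraries in the fit, library weights, variance prior and replicate block, and left out libraries. The length correction (a natural spline with 5 degrees of freedom) was chosen after seeing the data. Python 3.11.15 with matplotlib 3.10.9 made the plots. The values of 1 named gene are not reported here.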

Additional observations from a re-analysis of the deposited data

Results flagged for a closer look

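Of the genes named, 3 lay on opposite sides in the 2 pairs of groups that differ by palbociclib. For Hspa1a, the gap was 0.3966 above vehicle and -0.2614 in the combination, which lay below all OPG-Fc libraries. For Lamb2, the gap was 0.05496 above vehicle and -0.437 in the combination. Cdkn2d lay below vehicle by a gap of -0.01641 and above OPG-Fc in the combination by 0.0009189, and both distances are small. The limma test of the difference between the pairs passed 0 genes (adjusted p = 0.625 for Hspa1a and Lamb2), and 713 had an unadjusted p under 0.05.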

How the results depend on the processing

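The 2 genes passing in limma for palbociclib against vehicle became 4 with a pseudocount of 0.1, 1 with the length correction and 0 with no filter, an FPKM filter of 5, a filter over all 11 libraries, median-of-ratios scaling, only the compared libraries, array weights (which did not converge), no trend, or palbociclib replicates 1 and 3 left out. Against vehicle replicate 1, the 1 gene became 5 with the pseudocount, 3 with the filter of 5, 7 with the length correction, 1779 with array weights, and 0 with no filter, the 11-library filter, only the compared libraries, no trend, or replicates 1 and 3 left out. Leaving out 1 library gave 0 to 6322 genes in the first comparison and 0 to 196 in the second. For combination against OPG-Fc, the 13 genes became 6 with the pseudocount, 3 with median-of-ratios scaling, 1 with quantile normalization, 215 with only the compared libraries, 3741 with array weights, and 0 with no filter, the length correction or any 1 library left out. The 6322 genes against vehicle replicate 2 stayed between 4803 and 8950. The cause of these changes was not tested. Labels repeat replicate numbers across groups. In deviations from group means, same-numbered samples correlated at -0.42 to 0.45 in 15 pairs, and differently numbered ones at -0.45 to 0.43. Deviations within such small groups offset each other, so these values cannot settle whether same-numbered samples share more than a number. With the replicate block, 0 genes passed against vehicle, against vehicle replicate 1 and in the combination, and 5432 against vehicle replicate 2.

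With 1 library left out, 2455 to 5060 genes lay above both vehicle libraries and 2732 to 5516 below, and with palbociclib replicates 1 and 3 left out 3407 and 4522. Gaps of at least 1 numbered 73 above and 35 below with the pseudocount of 0.1, 157 and 47 with palbociclib replicates 1 and 3 left out, and 43 to 1717 above and 13 to 1529 below with 1 library left out. Among named genes, 6 changed sign, and in each the groups overlapped. The log2 difference of Acta2 was 0.0384 with median-of-ratios scaling, 0.33 with palbociclib replicates 1 and 3 left out and -0.67 to 0.60 with 1 library left out. Pdgfrb was at 0.0408 with the length correction and at -0.74 to 0.59 with 1 library left out. That range was -0.21 to 4.35 for Ccnd1, -0.0403 to 0.50 for E2f1, -0.74 to 0.0662 for Tnfrsf11a and -0.96 to 0.54 for Tnfsf11. With the FPKM filter of 5, which keeps fewer members, 8 endothelial, 5 elastic fibre and proteoglycan, 2 VEGF and 2 pericyte genes lay below both vehicle libraries.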
